A study of Mus musculus with 2 samples.

Results

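The sites described here are Tia1 crosslinks that lay in no annotated gene of their own strand but 1 to 5000 nt past the end of the nearest upstream protein-coding gene. They were taken from the pooled list of low-FDR sites (crosslinked nucleotides that passed the authors' false discovery rate filter), with gene ends from GENCODE M21 on GRCm38. Of 422150 sites, 4302 met this rule (9321 of 867271 pooled cDNAs), and they followed 451 of 21951 protein-coding genes. They were 27.9% of the 15403 sites outside genes. The data come from iCLIP, which fixes proteins to RNA with UV light, recovers 1 protein with an antibody and maps its contacts to single nucleotides: reverse transcription stops beside the nucleotide bound to protein, and each unique cDNA marks a binding position. All samples were cytoplasm of primary splenic B cells from C57BL/6 mice, kept with LPS at 10 µg/ml for 48 h, in 1 group of 2 replicates. No sample was a control, so no test over samples was possible and background crosslinking was not measured. The titles name Tia1 as the precipitated protein, the antibody field of the labels names its relative Tial1, and the methods give a Tia1-specific antibody. UV dose and RNase amount are likewise given differently in these 2 sources.

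Tia1 binds U-rich stretches of RNA, mostly in 3′UTRs, and gathers in stress granules when translation is blocked. The end of a gene in an annotation is where the longest known transcript stops, and a gene can have longer transcripts when RNA polymerase passes the first polyadenylation signal, usually AAUAAA or AUUAAA, and a later one is used. mRNAs of replication-dependent histones are different, because they carry no poly(A) tail and end just after a short stem-loop.

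The sequences below show where the strongest sites lay. For 4 histone genes, the 30 nt that end with the inverted repeat of the stem-loop are given, with the repeat and its loop in capitals. The repeat was searched as 6 bases that begin with GG, any 4 bases, and the reverse complement of the 6, in the 120 nt past the annotated end. The stretches are chr13:23534345-23534374 (plus) for Hist1h2af, chr13:21750150-21750179 (minus) for Hist1h4k, chr13:21718081-21718110 (plus) for Hist1h3h and chr13:21715718-21715747 (minus) for Hist1h2bl, all from the RefSeq assembly GRCm38.p6.
Hist1h2af: aaacaaaacccaaaGGCUCUUUUCAGAGCC
Hist1h4k: uuucugcuacaaaaGGCCCUUUUCAGGGCC
Hist1h3h: cuguguuuuucaaaGGCUCUUUUCAGAGCC
Hist1h2bl: acuccuaacucaaaGGCUCUUUUAAGAGCC

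For 11 of the 12 genes with the most downstream cDNAs in both replicates, the 29 nt around the highest site are given, with runs of 4 or more U in capitals and the site at position 15. In order, the windows are chr13:23534327-23534355 (plus), chr13:21750164-21750192 (minus), chr13:23751077-23751105 (plus), chr12:69373790-69373818 (plus), chr11:98460917-98460945 (minus), chr8:117460993-117461021 (plus), chr14:54898203-54898231 (plus), chrX:38532155-38532183 (minus), chr13:21718072-21718100 (plus), chrX:51113515-51113543 (minus) and chrX:20103446-20103474 (minus). The windows of Pabpn1 and Slc9a7 held no such run, and the other 9 did. The site shown for Pabpn1 held 10 cDNAs in replicate 1 and 0 in replicate 2, and that for Slc9a7 held 3 and 0.
Hist1h2af: UUUUUUUUUUUUUUUUUUaaacaaaaccc
Hist1h4k: ucuuugucUUUUauuucugcuacaaaagg
Hist1h2bb: uacuauauauucUUUUccuuucucugcuu
Arf6: ugccguuugucUUUUauauuuaaggccuc
Ikzf3: cuguguuuaaUUUUUUUUUaacagugaua
Cmip: acuaugcccuaaUUUUUUUaaaaaaggaa
Pabpn1: gagaauccuauaacuaacugaggagggac
Cul4b: uagcuaucuguaUUUUUUaaguugccugu
Hist1h3h: uucgucuuucugugUUUUUcaaaggcucu
Mbnl3: uauguuuccUUUUUUUauucuuucaauaa
Slc9a7: augaggacaggccuuuauauagucaugcu

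Replicate 1 held 6641 downstream cDNAs at 3264 sites and replicate 2 held 1818 at 837 sites. These were 1.05% (exact 95% interval 1.03 to 1.08) of the 632247 lifted cDNAs of replicate 1 and 1.11% (1.06 to 1.16) of the 163577 of replicate 2, a mean of 1.08% ± 0.0431 (SD, n = 2). The share of annotated 3′UTR sites in the cDNAs was 79.8% in replicate 1 and 82.3% in replicate 2. A single cDNA lay at 71.0% of the downstream sites of replicate 1 and at 67.9% of those of replicate 2, against 65.2% and 67.8% of the 3′UTR sites. Replicate 1 was the deeper library, with 3.87 times the cDNAs of replicate 2 in all and 3.65 times at downstream sites. A further 667 downstream sites (735 pooled cDNAs) were called on the pooled data alone. B cell markers held 4956 exonic cDNAs in replicate 1 and 1158 in replicate 2, on 10 and 9 of 10 genes. Markers of T cells, myeloid cells, NK cells and red cells held 0 to 29 per group of genes in replicate 1 and 0 to 6 in replicate 2.

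Of 7536 protein-coding genes with a low-FDR site in the 3′UTR or downstream, 104 had a downstream site in both replicates, which is 1.38% (percentage of genes called). Replicate 1 alone placed sites past 342 genes and replicate 2 past 130. Of these 104 genes, 53 had at least 5 downstream cDNAs in each replicate. The cDNAs were concentrated, since the 12 leading genes held 52.1% of those of replicate 1 and 59.7% of those of replicate 2. In 65 of the 104 genes the downstream cDNAs outnumbered those in the annotated 3′UTR, and 37 had none in the annotated 3′UTR. The annotated 3′UTRs of the 104 genes had a median of 907 nt, against 1820 nt in the 7085 genes with 3′UTR sites and none downstream. The 104 include 10 genes with sites in RefSeq exons of histone genes and 7 with sites in tRNA genes, in both replicates. Of the 18 histone genes with downstream sites, 11 had an annotated end within 6 nt of the stop codon. Leaving out histone and tRNA sites left 89 genes, for which these comparisons with the 3′UTR were not repeated.

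**Figure D1:**
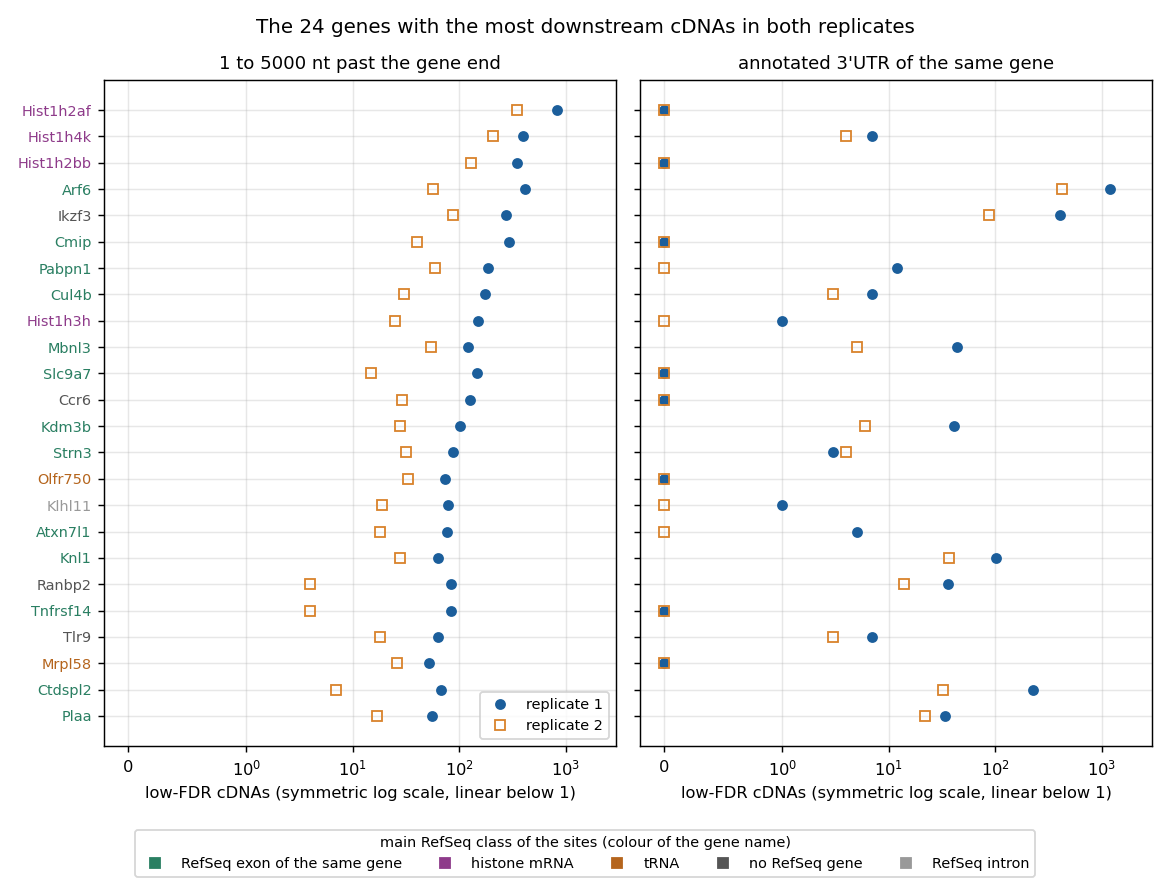
Low-FDR cDNAs (symmetric log axis, linear below 1) past the gene end (left) and in the annotated 3′UTR (right) for the 24 genes with the most downstream cDNAs in both replicates, 1 point per replicate, gene names coloured by the RefSeq class that holds most of their downstream cDNAs. Hist1h2af leads on the left with 822 and 352 cDNAs and has none on the right, while Arf6 and Ikzf3 have cDNAs on both sides.

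The downstream sites were set against RefSeq, an annotation that the rule did not use. RefSeq exons of the same gene held 2780 of the 4302 sites, with 46.5% (45.3 to 47.7) of the downstream cDNAs of replicate 1 and 34.2% (32.0 to 36.4) of those of replicate 2. RefSeq exons of histone genes held only 172 sites, but 27.3% (26.2 to 28.4) of the cDNAs of replicate 1 and 39.8% (37.6 to 42.1) of those of replicate 2. tRNA genes held 3.81% and 5.01%. No RefSeq gene covered 1078 sites past 259 genes, with 20.4% (19.5 to 21.4) of the cDNAs of replicate 1 and 19.5% (17.7 to 21.4) of those of replicate 2. Among them were 10 sites assigned to the histone gene Hist1h2bb, with 65 and 21 cDNAs, just before the start of another histone gene. The replicates thus differed by more than counting error for the same-gene and histone classes, and overlapped for sites outside RefSeq. RefSeq introns (134 sites) and exons of other genes (36 sites) held the rest.

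Histone genes gave the highest single nucleotides. Of the 57 nucleotides with at least 20 summed cDNAs, 47 followed a histone gene. Hist1h2af, which encodes an H2A core histone, had 822 downstream cDNAs in replicate 1 and 352 in replicate 2. Its annotated end lies 1 nt past the stop codon, and 817 and 350 of these cDNAs fell at 2 to 40 nt, most of them in the run of U shown above. The highest nucleotide (chromosome 13, 23534341) held 68 and 13 cDNAs, and 5 of the 6 highest downstream nucleotides of the series were in this run. Hist1h4k, an H4 gene, had 398 and 206 cDNAs at 1 to 21 nt past its end, which coincides with its stop codon. Hist1h3h, an H3 gene, had 149 and 25 cDNAs at 3 to 32 nt. Hist1h2bl, an H2B gene, had 27 and 3 cDNAs at 4 to 22 nt.

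These crosslinks were set against the stem-loop. An inverted repeat of the histone type was found past 10 of the 18 histone genes with downstream sites and began 22 to 55 nt past the annotated end. In the same window it occurred past 15 of 67 annotated histone genes whose symbol begins with Hist and past 38 of 21884 other protein-coding genes (0.174%). Past the 10 genes, 1450 of the cDNAs of replicate 1 within 120 nt lay before the repeat and 0 within or after it. In replicate 2, 592 lay before it, 1 within it and 0 after it. These mRNAs end just after the stem-loop, so little RNA lay past it to be crosslinked. Whether the short cDNAs from crosslinks within it could be mapped was not examined. The counts therefore do not show that the repeat was unbound. Annotated histone copies are near identical, and the sources used here do not say how reads with several matches were treated, so the split of cDNAs among these genes is uncertain.

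**Figure D2:**
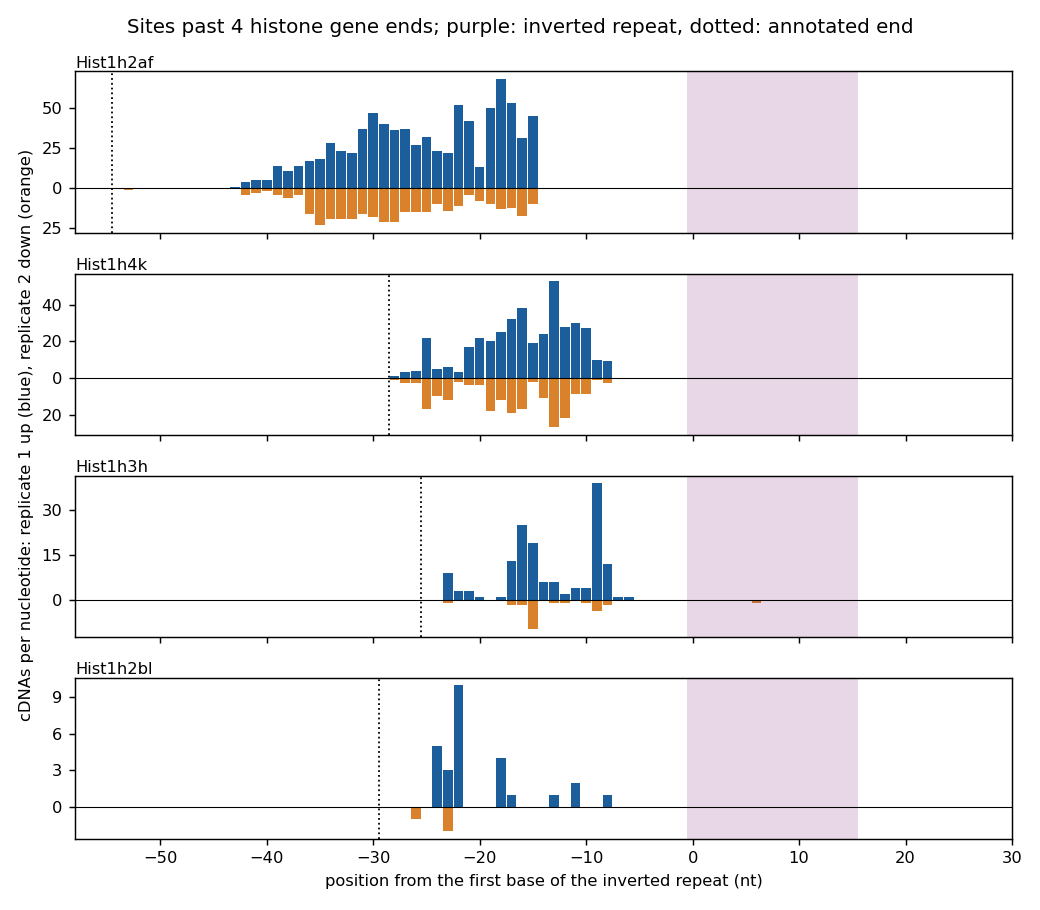
cDNAs per nucleotide past 4 histone genes, replicate 1 upward and replicate 2 downward, by distance in nt from the first base of the inverted repeat (purple), with the annotated gene end dotted. The cDNAs of both replicates lie between the annotated end and the repeat, except 1 cDNA of Hist1h3h in replicate 2 inside the repeat.

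Hist1h2bb was a case where the nearest upstream end was not the closest annotated gene. Its 41 sites held 352 cDNAs in replicate 1 and 130 in replicate 2. They lay 3835 to 3881 nt past its end and 4 to 50 nt before the annotated start of Hist1h2ab, an H2A gene. The same held for 11 sites assigned to Hist1h3d, with 24 and 6 cDNAs, which lay 1 to 29 nt before the start of Hist1h4d. Over 6 histone genes, 67 sites lay within 60 nt before the next gene start and held 6.05% of the downstream cDNAs of replicate 1 and 8.09% of those of replicate 2. Among all downstream sites, 158 (3.67%) lay within 1000 nt before the next gene start, with 7.23% of the pooled cDNAs.

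Sites in tRNA genes lay past 13 protein-coding genes. n-TTtgt3, a threonine tRNA (chromosome 14, 51065168 to 51065240, minus strand) 1092 nt past the olfactory receptor gene Olfr750, had 74 cDNAs in replicate 1 and 33 in replicate 2. n-TRcct5, an arginine tRNA 338 nt past the mitochondrial ribosome gene Mrpl58, had 40 and 16. Of 16 tRNAs, 8 had their highest site at positions 33 to 37, where the anticodon loop lies, and 8 at positions 56 to 68, toward the T arm. In the latter 8 the position rose with tRNA length, from 56 in tRNAs of 71 nt to 68 in the 1 of 83 nt. Counted from the 3′ end, these 8 sites thus lay at the same place. Whether reverse transcription stopped there at a protein contact was not tested. Several of the highest sites held few cDNAs, such as 0 and 1 in n-TDgtc9 and 0 and 0 in n-TGgcc5. Of the 8 tRNAs with the site toward the T arm, only n-TCgca18 (29 and 9 at the site) and n-TScga3 (13 and 5) had cDNAs in replicate 2. The 31 nt around tRNA sites were 23.1% U in replicate 1 and 22.6% in replicate 2, the lowest of the classes. tRNA genes also have near-identical copies, so these assignments are uncertain.

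Beyond these short RNAs, the largest group followed the same gene into a longer RefSeq transcript. Among genes bound in the 3′UTR or downstream, 640 had a RefSeq end more than 100 nt past the GENCODE end, and 54 of these (8.44%, 6.40 to 10.9) had downstream sites in both replicates. Among the 6855 whose RefSeq end did not lie so far out, 49 did (0.715%, 0.529 to 0.944). The intervals are over genes, which are not replicates of a condition. In the 142 genes with downstream sites whose RefSeq end lay more than 100 nt past the GENCODE end but within the window, the last 300 nt before the RefSeq end held 727 and 182 cDNAs, and the first 300 nt after it held 78 and 13. The former came from sites of 67 genes and the latter from sites of 5, with Ccr6 holding most of the latter. Past the RefSeq end at any distance in the window, 17 of the 142 genes had sites, with 409 and 142 cDNAs, most of them past Ikzf3 and Ccr6.

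Polyadenylation signals were counted in the last 50 nt before each gene end, as AAUAAA or AUUAAA on the transcript strand only. In the 54 genes with a longer RefSeq end and downstream sites in both replicates, the GENCODE end had a signal in 40.7% (27.6 to 55.0) and the RefSeq end in 87.0% (75.1 to 94.6). In the 469 genes with a longer RefSeq end and 3′UTR sites but none downstream, the GENCODE end had one in 70.8% (66.4 to 74.9) and the RefSeq end in 61.0% (56.4 to 65.4). Over all 7085 bound genes without downstream sites, 80.7% (79.8 to 81.7) of GENCODE ends had one. Genes with downstream sites mainly outside RefSeq (34 genes in both replicates) had one at 50.0% (32.4 to 67.6) of their GENCODE ends. A signal stood in the 100 nt past the last site of 11 of these 34 genes (32.4%, 17.4 to 50.5), against 12.1% (11.6 to 12.5) of 21378 windows of 100 nt tiled over the stretches past the gene ends. The match says nothing about its use in these cells.

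Arf6, which encodes a small GTPase of membrane traffic at the cell surface, had the most downstream sites in RefSeq exons of the same gene. It had 418 downstream cDNAs at 1 to 2144 nt in replicate 1 and 57 in replicate 2, against 1203 and 422 in its annotated 3′UTR. The pooled sites ran without a gap of over 200 nt out to 2144 nt, and the RefSeq end lies at 2197 nt. Replicate 2 alone had wider gaps, with no site between 84 and 347 nt. The first cluster, at 1 to 108 nt, held 164 and 17 cDNAs, and a separate narrow cluster at 1097 to 1124 nt held 68 and 25. The downstream share of its 3′ cDNAs was 25.8% in replicate 1 and 11.9% in replicate 2.

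A run of sites from the gene end outward, with the first site and each gap within 200 nt, a reach of at least 500 nt, at least 5 pooled cDNAs and a site of each replicate, was called a contiguous tail. It was found past 5 genes, Arf6 included. The run was built on pooled sites, and 1 site of replicate 2 was enough. Replicate 2 alone gave no such run past any of the 5. Past Pabpn1, for example, its first site lay at 232 nt. All 5 tails lay mainly in RefSeq exons of the same gene and stopped short of its RefSeq end. Cul4b, a cullin scaffold of ubiquitin ligases, had 176 and 30 cDNAs out to 1483 nt (RefSeq end at 1658 nt), and only 7 and 3 in its annotated 3′UTR. Strn3, a striatin subunit of a phosphatase complex, had 88 and 32 out to 927 nt and 3 and 4 in the annotated 3′UTR. Pabpn1, the nuclear poly(A)-binding protein, had 187 and 59 out to 717 nt and 12 and 0 in the annotated 3′UTR. Its last cluster, at 424 to 717 nt, held 61.0% of its downstream cDNAs in replicate 1 and 86.4% in replicate 2. Ctdspl2, a phosphatase of the CTD family, had 67 and 7 downstream cDNAs and 229 and 32 in the annotated 3′UTR. Its tail reached 589 nt (RefSeq end at 1684 nt), and its clusters from 1149 nt on lay outside the tail. The number of tails depended on the allowed gap, with 0 at 100 nt and 20 at 500 nt.

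Other genes with sites mainly in RefSeq exons of the same gene had no contiguous tail. Cmip, which encodes the c-Maf inducing protein, had 291 cDNAs in replicate 1 and 40 in replicate 2 at 288 to 1998 nt, none in its annotated 3′UTR, and a RefSeq end at 2076 nt. A single cluster at 1188 to 1581 nt held 63.9% of these in replicate 1 and 80.0% in replicate 2. Mbnl3, a muscleblind RNA-binding protein, had 120 and 54 cDNAs at 249 to 3747 nt, against 44 and 5 in the annotated 3′UTR. Its farthest cluster, at 3649 to 3747 nt, held 40 and 33 cDNAs and stopped just before the RefSeq end (3775 nt). Slc9a7, a sodium/proton exchanger of the Golgi, had 147 and 15 cDNAs spread over 27 clusters, the highest nucleotide holding 3 and 0. Kdm3b, a histone demethylase, had 102 and 28 cDNAs at 31 to 314 nt. Knl1, a kinetochore scaffold, had 63 and 28 at 206 to 953 nt, and Tnfrsf14, a TNF receptor family member of lymphocytes, had 83 and 4 at 8 to 3307 nt.

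Ikzf3 encodes the lymphoid transcription factor Aiolos and was a leading gene whose sites lay mostly beyond both annotations. It had 276 downstream cDNAs in replicate 1 and 88 in replicate 2, against 406 and 88 in its annotated 3′UTR. RefSeq extends the gene by 292 nt only, and the 11 sites inside that stretch held 15 and 0 cDNAs. A cluster of 34 sites at 3936 to 3993 nt (chr11:98460909-98460966, minus strand) held 207 and 79 cDNAs, which were 75.0% and 89.8% of the downstream cDNAs of the gene. Its highest nucleotide held 21 and 15 cDNAs at the U run shown above. The clusters between the gene end and this one each held at most 22 and 9 cDNAs. The next gene on the strand began 21918 nt past the last site. Neither AAUAAA nor AUUAAA stood in the 300 nt after the last site.

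Ccr6, the receptor for the chemokine Ccl20 on B cells, had 127 and 29 downstream cDNAs and none in its annotated 3′UTR. All 29 of replicate 2 and 95 of replicate 1 lay at 1427 to 1751 nt, past the RefSeq end at 1378 nt. Tlr9, the endosomal receptor for unmethylated DNA, had 63 and 18 downstream cDNAs at 575 to 2013 nt, against 7 and 3 in its annotated 3′UTR, and no RefSeq exon reached there. Its 2 farthest clusters held 29 and 6 cDNAs at 1828 to 1877 nt, and 17 and 6 at 1989 to 2013 nt. Ranbp2, a nuclear pore protein, had 83 and 4 cDNAs in 1 cluster at 225 to 519 nt, against 36 and 14 in its annotated 3′UTR. Dusp4, a MAP kinase phosphatase, had 36 and 9 at 874 to 2027 nt, and Was, an actin regulator of blood cells, had 40 and 8 at 23 to 80 nt. The first signal within 300 nt past the last site is shown in capitals for 4 of these genes, to set it beside the place where the sites stop. It began 5 nt past the last site of Ccr6 (chr17:8258893-8258914, plus), 6 nt in Ranbp2 (chr10:58494876-58494898, plus), 12 nt in Dusp4 (chr8:34821922-34821950, plus) and 110 nt in Tlr9 (chr9:106228994-106229023, plus). In Was, not shown, it began 179 nt past the last site.
Ccr6: ccacAUUAAAauauaaacuuau
Ranbp2: gcagaAAUAAAgugauaauugau
Dusp4: auuugaagaaaAAUAAAuacauuuucaac
Tlr9: auuuggcugcagAAUAAAcuaccuuuuauu

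**Figure D3:**
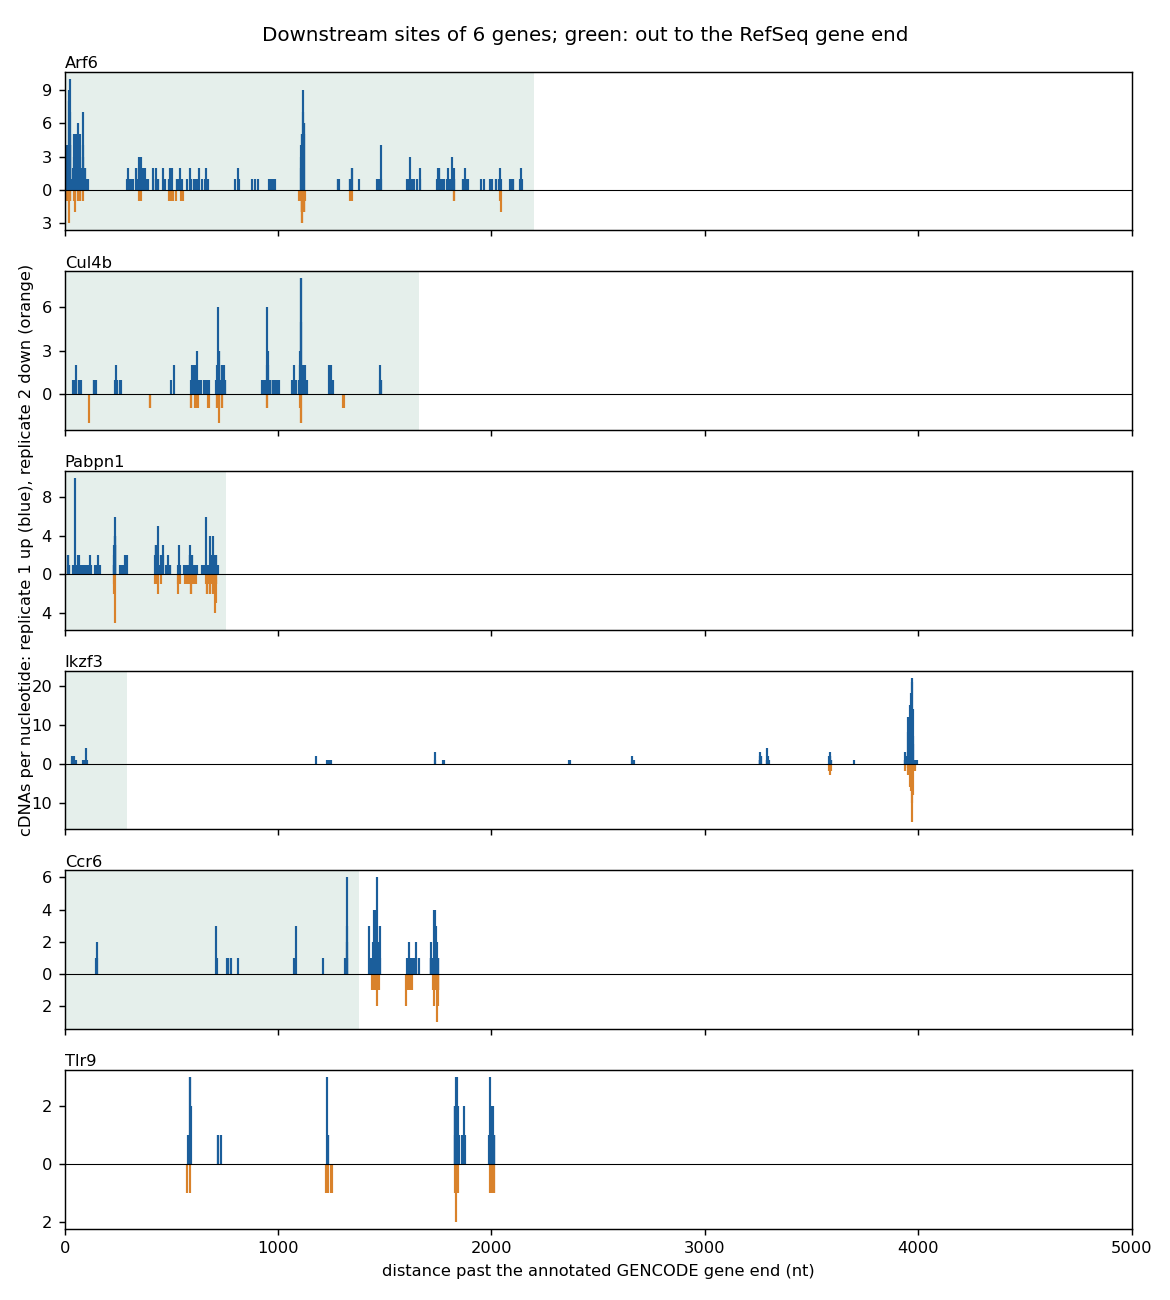
cDNAs per nucleotide, replicate 1 upward and replicate 2 downward, by distance in nt past the GENCODE end of 6 genes, with the stretch out to the RefSeq gene end in green. The sites of Arf6, Cul4b and Pabpn1 stay within the green stretch, while the main clusters of Ikzf3 and Ccr6 and all sites of Tlr9 lie outside it.

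Some strong sites outside RefSeq were narrow and far from the gene end. Rtl8a had 28 and 9 cDNAs on 2 neighbouring nucleotides 4936 and 4937 nt past its end, and it has near-identical relatives in the genome. Birc6, an inhibitor of apoptosis, had 21 and 24 cDNAs at 1757 to 1764 nt, in a stretch rich in A. Mfsd1, a transporter of the lysosome, had 6 and 17 cDNAs at 3889 to 3893 nt, and was the only one of the 63 genes with at least 20 summed downstream cDNAs that was higher in replicate 2. Cd36, a scavenger receptor, had 27 and 6 at 4899 to 4913 nt. Around the highest sites of Birc6 (chr17:74705106-74705134, plus) and Rtl8a (chrX:53637537-53637565, minus), shown because these sites lay in no RefSeq gene and few nucleotides held their cDNAs, no run of 4 U was present, as around those of Pabpn1 and Slc9a7.
Birc6: aaaaaaaagaaugaaucuuucaaaaaaaa
Rtl8a: uaaaacuuguauaucagaugaagaacaca

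Density was highest next to the gene end and lowest in the farthest bin. In the genes with downstream sites, replicate 1 had 81.6 cDNAs per 1000 available nt in the first 50 nt past the end and replicate 2 had 30.2. Without sites in RefSeq exons of histone genes or in tRNA genes (below, without histone and tRNA sites), these were 15.9 and 3.48. At 51 to 100 nt the density was 10.2 and 1.29, at 501 to 1000 nt 2.87 and 0.639, and at 4001 to 5000 nt 0.396 and 0.0801. The decline was not even. Without histone and tRNA sites the density was 5.54 and 0.603 at 101 to 200 nt and 6.03 and 1.38 at 201 to 500 nt. With all sites it was 3.21 and 0.761 at 1001 to 2000 nt, above the bin before it. Leaving out histone and tRNA sites gave 2.85 and 0.600 there, against 2.84 and 0.625 in the bin before it. The bin at 3001 to 4000 nt held 869 and 296 cDNAs, against 388 and 82 at 2001 to 3000 nt. Without histone and tRNA sites it held 541 and 176, of which the Ikzf3 cluster described above made up 207 and 79. Also among these were 65 and 21 cDNAs at 10 Hist1h2bb sites that lay in no RefSeq exon and so were not left out. In the annotated 3′UTRs of the same genes, the density was 59.2 and 21.9 in the last 50 nt and 162 and 74.1 at 51 to 100 nt before the end. The first 1000 nt held 57.5% (56.3 to 58.7) of the downstream cDNAs of replicate 1 and 59.1% (56.8 to 61.4) of those of replicate 2, and without histone and tRNA sites 49.7% and 45.7%.

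**Figure D4:**
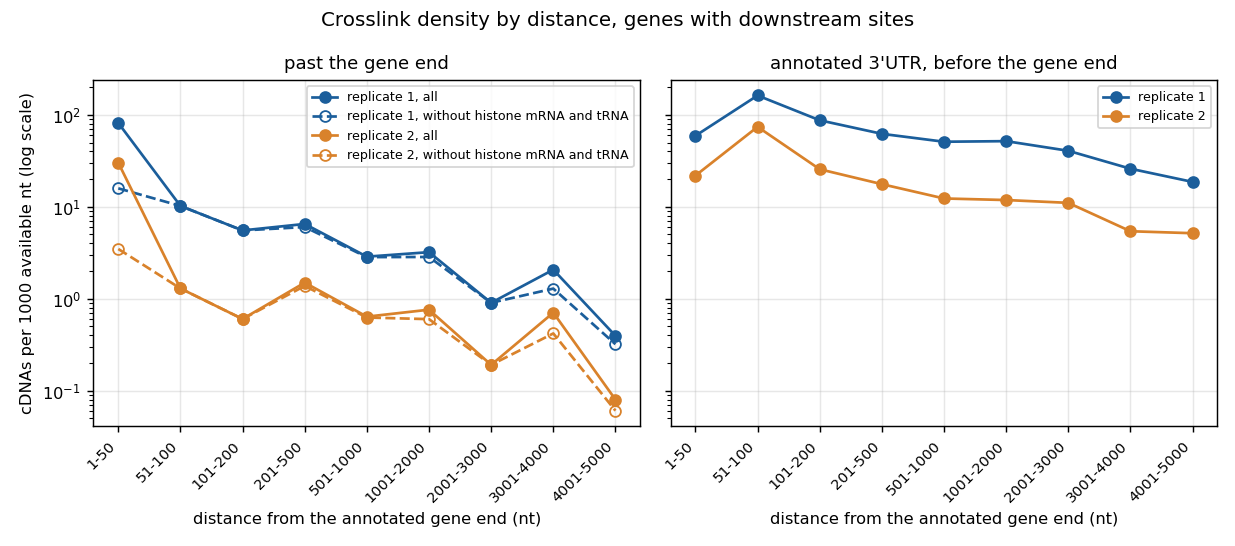
cDNAs per 1000 available nt (log axis) by distance from the annotated gene end, in genes with downstream sites, past the end (left) and in the annotated 3′UTR before it (right), 1 line per replicate, open symbols without histone and tRNA sites. The first 50 nt past the end hold 81.6 and 30.2 with all sites and 15.9 and 3.48 without those classes.

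The sequence around downstream sites was U-rich. In the 31 nt centred on each site, U made up 45.3% in replicate 1 and 50.7% in replicate 2 (mean 48.0% ± 3.76, SD, n = 2), against 44.8% and 49.6% around annotated 3′UTR sites. The difference between the 2 kinds of site was smaller than that between replicates. Over all available nucleotides past the same genes, U was 29.0%. Soft-masked bases, which mark repeats and simple sequence such as long U runs, held 46.0% of the downstream sites, against 38.8% of the 3′UTR sites. The crosslinked nucleotide itself was U at 74.0% (72.5 to 75.5) of downstream sites in replicate 1 and 83.9% (81.2 to 86.3) in replicate 2, against 73.6% and 84.6% of 3′UTR sites. UUUUU occurred in the 31 nt of 41.8% and 54.5% of downstream sites, 39.5% and 54.6% of 3′UTR sites, and 6.96% of 68974 windows tiled past the same genes. AUUUA occurred in 11.6% and 13.3%, 11.3% and 12.5%, and 4.41% of the same sets.

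**Figure D5:**
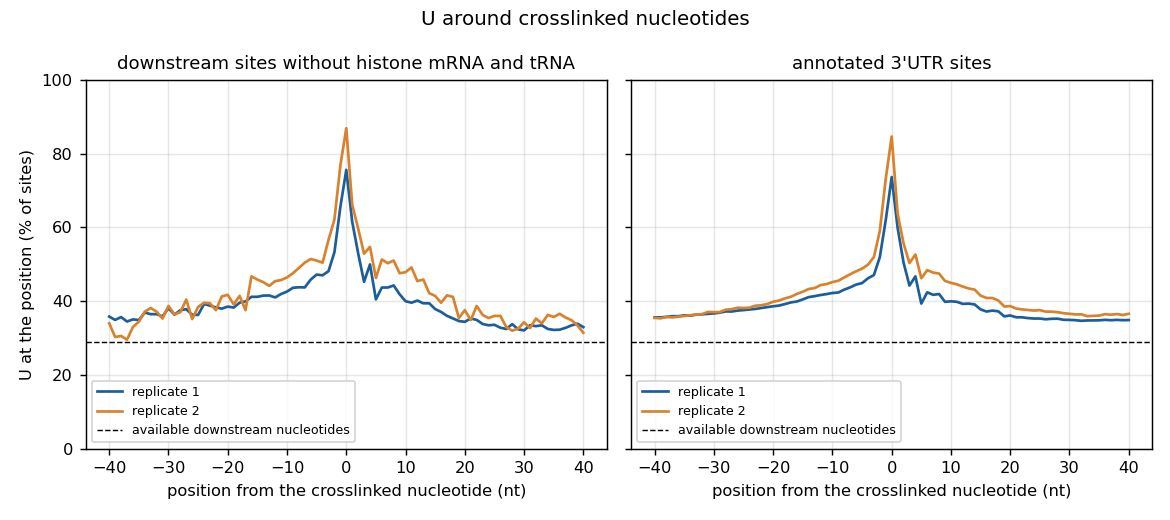
U at each position from 40 nt before to 40 nt after the crosslinked nucleotide, in percent of sites, for downstream sites without histone and tRNA sites (left) and for annotated 3′UTR sites (right), 1 line per replicate, with the U content of all available downstream nucleotides dashed. Both panels peak at the crosslinked nucleotide, at 75.6% and 86.9% on the left and 73.6% and 84.6% on the right.

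Recurrence of sites between replicates was counted at the nucleotide and within 15 nt. Of the 837 downstream sites of replicate 2, 466 (55.7%, 52.2 to 59.1) were also sites of replicate 1, against 64.6% (64.3 to 65.0) of its 77000 3′UTR sites. Within 15 nt, 88.1% (85.7 to 90.2) had a neighbour in replicate 1, against 96.1% (95.9 to 96.2). Of the 3264 downstream sites of replicate 1, 14.3% were sites of replicate 2, against 18.8% of the 3′UTR sites. Without histone and tRNA sites, 350 of the 700 downstream sites of replicate 2 (50.0%, 46.2 to 53.8) were sites of replicate 1. A mean of 2.17 cDNAs lay at each downstream site of replicate 2, against 1.75 at each 3′UTR site. Intervals cover counting error only, and sites of 1 gene are not independent. In the spans between the first and last site of 24 leading genes, the low-FDR sites held 62.8% to 100% of all mapped cDNAs of the pooled unfiltered map.

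Genes that the study singled out and lists of related genes were looked up as well. With 1.38% of all bound genes having downstream sites in both replicates, counts of 0 or 1 in lists of this size say nothing about the lists. None of Trp53, Hif1a, H2-K1, Cdkn1a, Gadd45a, Ccnd2, Tia1, Tial1 and Dcp1a had a downstream site, although Ccnd2, a G1 cyclin, had 1042 and 271 cDNAs in its annotated 3′UTR. Of 30 bound genes of B cell transcription and receptor signalling, 1 had downstream sites in both replicates (Ikzf3), and Pik3ap1, a signalling adaptor, had 4 and 0 cDNAs. Of 28 bound genes of endoplasmic reticulum folding and secretion, 1 did, the disulfide isomerase Pdia4, with 12 and 5 cDNAs at 11 to 26 nt, against 714 and 252 in its 3′UTR. Edem3, which trims glycans of misfolded proteins, had 10 and 0. In the lists of RNA-binding regulators, stress granule and P-body factors, NF-kB and LPS receptor signalling, and cell cycle and apoptosis regulators, no gene of the 29, 28, 26 and 28 bound had sites in both replicates. Among these genes, Btg1 had 2 cDNAs and Mcl1 had 3 in replicate 1 and none in replicate 2, and Lsm14a had sites in the pooled data only. Of the genes of other spleen cells, 6 were bound and 0 had sites in both replicates, with 5 cDNAs past Hbb-bs in replicate 1.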

How the data were processed

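The authors removed PCR duplicates by random barcode bases and mapped reads to mm9 in iCount with Bowtie (no version stated). The deposited numbers count the distinct cDNAs at a crosslinked nucleotide, signed by strand and not scaled to depth. Per the file headers, low-FDR sites were called on each replicate and on their sum. LiftOver coordinates on mm10 (GRCm38) were deposited for the summed list.

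The 422150 rows of that list matched its mm9 version in order and value. This gave GRCm38 positions for 98.9% of the low-FDR cDNAs of replicate 1 (639108 in all) and 99.1% of those of replicate 2 (165081). Sites were assigned with GENCODE M21 and compared with RefSeq on GRCm38.p6 (Python 3.11.15, numpy 2.4.6, scipy 1.17.1, matplotlib 3.10.9). Intervals are exact (Clopper-Pearson, 95%) and cover counting error only. With 1 group of 2 replicates, which the series text calls biological, no test was run. Distance and tail functions were tested on simulated data. Alternatives varied the window, cDNA minimum, neighbouring genes, soft-masking, gaps, reach, U window and replicates.

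The members and lists were chosen with earlier results of these data known. Named genes were the 12 with the most summed cDNAs among those with sites in both replicates, tail genes (at most 6 by reach and 6 by ratio to the 3′UTR), at most 3 per list, the study's own genes and the 6 highest nucleotides. Others, such as Tlr9, Ranbp2, Rtl8a, Hist1h2bl and the tRNAs, were named after their values were seen. 1 gene and 1 sequence window are not reported here.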

Additional observations from a re-analysis of the deposited data

How the results depend on the processing

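No paired analysis was possible because both replicates belong to 1 group. The share of cDNAs (1.08%), the genes with sites in both replicates (104), the share within 1000 nt (58.3%), the tails (5) and the U content (48.0%) were recomputed under the alternatives that bear on each. With windows of 2000 and 10000 nt the share was 0.843% and 1.29% and the share within 1000 nt 74.8% and 49.1%. With at least 2 pooled cDNAs per site, the share within 1000 nt was 60.3% and 1 tail was left, and with at least 5 the values were 1.27%, 45 genes, 64.8% and 0 tails. Without sites within 1000 nt before the next gene start, they were 0.993% and 63.1%. Without soft-masked bases, which mark repeats and simple sequence such as U runs, they were 0.368%, 67 genes, 44.4% and 40.2% U. Soft-masked bases held 58.9% and 72.7% of the downstream cDNAs, against 45.9% and 57.5% in 3′UTRs. Gaps of 100 and 500 nt gave 0 and 20 tails, and a reach of 1000 nt gave 2. U in 51 nt was 43.6%, and sharing within 15 nt was 88.1%, against 55.7% at the nucleotide. Leaving out a replicate gave 1.05% to 1.11%, 130 to 342 genes, 57.5% to 59.1% and 45.3% to 50.7% U. The tail count of 5 did not change there, but sites of replicate 2 alone do not form these runs. That count therefore says nothing about tails in a single replicate. Chosen after seeing the data, leaving out histone and tRNA sites gave 0.669% and 47.7%, and leaving out all RefSeq exons gave 0.230%, 37 genes, 23.6% and 0 tails. The causes were not tested beyond each setting's construction. Replicate 1 had 3.87 times the cDNAs of replicate 2, and the part of depth in the genes found in both was not tested. With 2 replicates and no control, neither specificity nor the use of a longer transcript was measured.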
